A study of Homo sapiens with 3 samples.

Results

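The collagen and laminin genes were examined for peaks of the transcription factor MEIS1 in CWR22Rv1 prostate cancer cells, a castration-resistant human carcinoma line derived from a serially passaged xenograft. Members were the human protein-coding genes whose symbols have the form COL, number, A, number or LAMA, LAMB or LAMC with a number, which gave 44 collagen and 12 laminin genes, 56 of 20056 protein-coding genes in all. A gene counted as bound where at least 1 peak of a list carried its name as the nearest annotated start site, and all other members counted as unbound. MEIS1 occupancy had been mapped by ChIP-seq, the sequencing of DNA recovered with an antibody to MEIS1 from fixed chromatin, in the LV-MEIS1 line, which expressed lentiviral MEIS1 and retained its own HOXB13, and in the HOXB13ko-LV-MEIS1 line, which expressed the same vector after CRISPR deletion of HOXB13. Cells of both lines were kept under puromycin with no other treatment. The HOXB13ko cells were a pool of recombined knockout clones, MEIS1 was driven by a viral vector in a line with little of its own, and both ChIPs were compared with 1 input from CWR-22Rv1 cells. The LV-MEIS1 list was called from 3 pooled immunoprecipitations (202428594 tags, 5968 peaks), and the HOXB13ko-LV-MEIS1 list from 2 (105763683 tags, 2047 peaks). The input held 39102495 tags. Each line therefore had 1 pooled list and no replicate values. Differences between the lines are descriptions of 2 lists, in which the deletion cannot be told apart from the depth and the number of pooled immunoprecipitations, and a gene without a peak is one with no peak in the list used here. The study describes a larger LV-MEIS1 peak set than this list, and its further peaks were not analysed here, so a gene given as unbound may have a peak among them.

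Collagens are extracellular proteins built of 3 chains wound into a triple helix. Fibrillar collagens form the load-bearing cables of connective tissue, type IV collagens form the sheet-like network of basement membranes, and type VI collagens form beaded microfilaments around cells. Laminins are cross-shaped trimers of an alpha, a beta and a gamma chain that assemble into the other network of the basement membrane, the layer on which prostate epithelium rests. MEIS1 is a homeodomain protein of the TALE class that binds DNA at a TGACA core, alone or together with HOX proteins such as HOXB13. The study describes HOXB13 as the HOX gene with the highest expression in the adult prostate, and HOXA10 as the next. HOXB13 sites carry the core ATAAA or its complement TTTAT.

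Of the 56 genes, 16 had a MEIS1 peak in LV-MEIS1 cells and 3 had one in HOXB13ko-LV-MEIS1 cells. The 16 genes carried 20 peaks, 13 at 11 collagen genes and 7 at 5 laminin genes. The 3 genes of the HOXB13ko-LV-MEIS1 list carried 1 peak each, and all 3 were collagens (COL6A3, COL21A1 and COL6A2). COL6A3 and COL21A1 had a peak in both lists, 14 genes had one only in the LV-MEIS1 list, and COL6A2 had one only in the HOXB13ko-LV-MEIS1 list. No peak was annotated to the remaining 39 genes, 32 collagens and 7 laminins. When the LV-MEIS1 list was shortened to its 2047 peaks of lowest q, the size of the other list, 8 members had a peak in it. The count in HOXB13ko-LV-MEIS1 cells was 3. The share of all protein-coding genes bound in the shortened list is not given here. Whether 8 against 3 is particular to the members therefore cannot be told.

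These shares were read against those of all protein-coding genes. In LV-MEIS1 cells 28.6% of the members had a peak, against a background of 15.1%. The members are long genes, with a median length of 124.5 kb against 24.1 kb for all protein-coding genes, and long genes carry more annotated peaks. Among genes of 100 kb or more, 10 of 32 members (31.25%) had an LV-MEIS1 peak, against a background of 26.3% (884 of 3356 genes). In HOXB13ko-LV-MEIS1 cells 5.36% of the members had a peak against a background of 5.79%, and among genes of 100 kb or more it was 1 of 32 against a background of 8.13%. Bound in both lists were 2 of 56 members, against a background of 2.29%. Of the genes bound in LV-MEIS1 cells, 12.5% of the members and 15.1% of all protein-coding genes were also bound in HOXB13ko-LV-MEIS1 cells. The share of members with a peak thus exceeded that of all genes in LV-MEIS1 cells and was close to the background without HOXB13. Among genes of 100 kb or more the 2 LV-MEIS1 shares lay nearer to each other, but that comparison covers only 32 of the 56 members. Members shorter than 100 kb were not compared with genes of their own length.

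**Figure D1:**
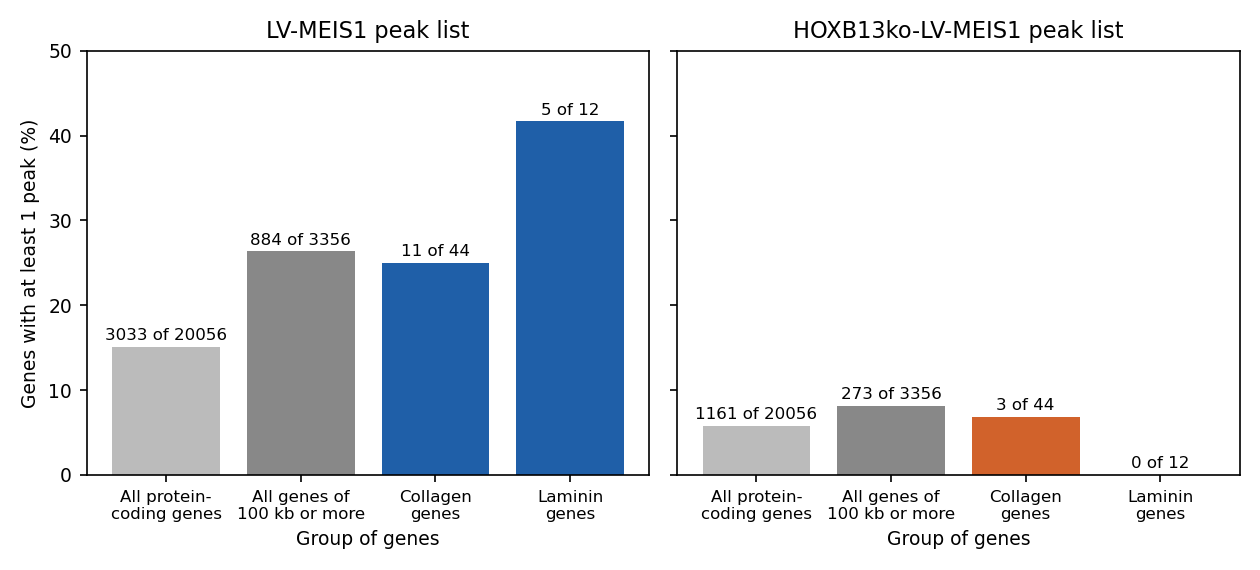
Share of genes (vertical axis, percent) with at least 1 annotated MEIS1 peak in the LV-MEIS1 list (left) and the HOXB13ko-LV-MEIS1 list (right), with the count above each bar and members included in the grey bars. In LV-MEIS1 cells 11 of 44 collagen and 5 of 12 laminin genes had a peak, against 3 of 44 and 0 of 12 in HOXB13ko-LV-MEIS1 cells; bars have no error because each line has 1 pooled list.

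Counting summits inside GENCODE gene bodies, whatever gene the annotation named, gave lower values for the members. The 56 gene bodies covered 8.47 Mb and held 12 LV-MEIS1 summits, or 1.42 per Mb, against 2.26 per Mb over the bodies of all protein-coding genes. No HOXB13ko-LV-MEIS1 summit lay inside a collagen or laminin gene, whereas all gene bodies held 0.632 per Mb. Per length of gene, then, the members held fewer MEIS1 summits than protein-coding genes at large in both lists. The comparison was not matched for gene length, and the members are longer at the median (124.5 kb against 24.1 kb). Whether the lower values go with gene length was not tested.

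The sequences around the summits that carry these results are printed here. Each is 101 bases of the plus strand of hg38 centered on the LV-MEIS1 summit. For COL6A3 the HOXB13ko-LV-MEIS1 summit lay 9 bp from that center. The sequences comprise the peak called in both lines, the strongest collagen and laminin peaks, and the LAMA3 peak within 10 kb of its annotated start. Capitals mark TGACA, or TGTCA, which is TGACA on the minus strand.
COL6A3, both lines, chr2:237291588-237291688: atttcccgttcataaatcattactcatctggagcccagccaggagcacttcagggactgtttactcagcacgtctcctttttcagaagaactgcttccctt
COL2A1, LV-MEIS1, chr12:48021800-48021900: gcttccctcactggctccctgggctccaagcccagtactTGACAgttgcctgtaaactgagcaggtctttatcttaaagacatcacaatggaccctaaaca
COL4A4, LV-MEIS1, chr2:227052999-227053099: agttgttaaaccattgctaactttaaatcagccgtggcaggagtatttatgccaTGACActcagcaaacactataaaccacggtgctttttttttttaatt
LAMC1, LV-MEIS1, strongest, chr1:183053036-183053136: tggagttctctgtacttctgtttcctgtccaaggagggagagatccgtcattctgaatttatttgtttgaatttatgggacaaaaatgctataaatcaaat
LAMC1, LV-MEIS1, middle, chr1:183070003-183070103: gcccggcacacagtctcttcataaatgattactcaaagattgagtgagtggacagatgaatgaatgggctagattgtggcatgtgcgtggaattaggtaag
LAMA3, LV-MEIS1, chr18:23684759-23684859: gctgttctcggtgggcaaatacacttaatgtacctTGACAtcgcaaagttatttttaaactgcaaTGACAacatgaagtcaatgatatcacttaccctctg
LAMB1, LV-MEIS1, chr7:108037849-108037949: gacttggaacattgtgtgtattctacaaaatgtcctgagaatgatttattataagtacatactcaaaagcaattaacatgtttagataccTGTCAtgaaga

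Type VI collagen chains assemble into the beaded filaments that link cells to the surrounding matrix. Their genes held 2 LV-MEIS1 and 2 HOXB13ko-LV-MEIS1 peaks at 3 of 5 genes. In each list 2 of the 5 were bound, against backgrounds of 15.1% in LV-MEIS1 and 5.79% in HOXB13ko-LV-MEIS1 cells, in a class of only 5 genes. COL6A3, which encodes the large alpha 3 chain, had the highest fold enrichment of all 20 LV-MEIS1 peaks, 14.4 over the local background (q = 2.40e-45), which ranked 56 of 5968 in the list. The peak (chr2:237291458-237291815) lay 122569 bp downstream of the start site and 32365 bp beyond the 3′ end of the gene, in intergenic sequence. In HOXB13ko-LV-MEIS1 cells a peak was called at the same position (chr2:237291513-237291742), with a fold enrichment of 7.09 (q = 5.47e-13). The 2 peaks overlapped by 230 bp and their summits were 9 bp apart. The pileup at the summit, in tags scaled to the depth of the input, was 55.2 in LV-MEIS1 and 26.6 in HOXB13ko-LV-MEIS1 cells, and the rank by fold enrichment within each list was at the 99.1 and the 73.2 percentile. This was the only collagen or laminin peak that overlapped a peak of the other line, 1 of 20 (5%) LV-MEIS1 peaks against 7.66% of all peaks in that list, and 1 of 3 HOXB13ko-LV-MEIS1 peaks against 22.3%.

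COL6A1 and COL6A2, which encode the short alpha 1 and alpha 2 chains and lie in tandem on chromosome 21, each had a peak in a different line. The COL6A1 peak of LV-MEIS1 cells lay 864 bp upstream of its start site and was the only collagen or laminin peak classed as a promoter. It was weak, with a fold enrichment of 4.47 (q = 2.17e-05, percentile 11.1). The COL6A2 peak of HOXB13ko-LV-MEIS1 cells lay 7155 bp upstream of its start with a fold enrichment of 4.69 (q = 2.59e-05, percentile 23.3). The COL6A2 peak was annotated as a simple repeat, and the part of read mapping in such sequence was not tested. COL6A5 and COL6A6 had no peak in either list.

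Of the 11 fibrillar collagens, 3 (27.3%, against the background of 15.1%) had an LV-MEIS1 peak, namely COL2A1, COL11A1 and COL5A2. None had one in HOXB13ko-LV-MEIS1 cells, where a count of 0 of 11 genes lies near the background of 5.79%. COL2A1, the collagen of cartilage fibrils, had the second strongest of the 20 peaks, with a fold enrichment of 10.5 (q = 2.95e-28, chr12:48021695-48022328). It lay 17348 bp upstream of the start site, with a TGACA core centered 9 bp from the summit. COL11A1, which encodes a minor chain of the same fibrils, had a peak in intron 17 of 65 with a fold enrichment of 4.50 and a stronger one, 7.65, that was intergenic and 494840 bp from its start. That second peak lay 262811 bp beyond the gene's 3′ end, so it was tied to COL11A1 only as the nearest start site. The genes of the major fibrillar chains, COL1A1, COL1A2 and COL3A1, had no peak in either list, nor did COL5A1, COL5A3, COL11A2, COL24A1 and COL27A1.

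COL5A2, a type V chain that takes part in starting fibrils, depended on how peaks were assigned. The 1 peak that carried its name had a fold enrichment of 5.97 and a stated distance of 46329 bp upstream, but the distance depended on the gene model. The summit lay 896 bp upstream of the outermost COL5A2 start in GENCODE and 214903 bp downstream of the outermost start in RefSeq, inside the gene. Inside the introns of COL5A2 lay 2 further LV-MEIS1 peaks that carried the names of nearer microRNA genes, MIR3129 and MIR3606. The MIR3129 peak had a fold enrichment of 11.7 (q = 3.70e-35, percentile 95.7) and a TGACA core, and it was the strongest LV-MEIS1 peak inside the GENCODE body of any collagen or laminin gene. The MIR3606 peak had a fold enrichment of 4.76. By the naming rule neither counted as a COL5A2 peak.

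Fibril-associated collagens coat or bridge fibrils without forming them, and 3 of 10 (30%, against the background of 15.1%) had an LV-MEIS1 peak. COL21A1 had 2, both in introns, with fold enrichments of 7.35 and 6.06. In HOXB13ko-LV-MEIS1 cells COL21A1 had a peak of 6.14 (q = 1.91e-09), so the gene was bound in both lists. The sites were not the same. The HOXB13ko-LV-MEIS1 peak (chr6:55993511-55993746) lay 63002 bp beyond the 3′ end of the gene in an MSTA internal element, an endogenous retrovirus-like repeat of the ERVL-MaLR family, and it overlapped no LV-MEIS1 peak. COL9A2, a chain of the type IX collagen that decorates cartilage fibrils, had an LV-MEIS1 peak of 6.75 at 21659 bp upstream with 2 TGACA cores. COL14A1 had one of 4.87 at 88584 bp upstream, inside an intron of the neighboring gene DEPTOR. From the outermost COL14A1 start in GENCODE that summit lay 23256 bp upstream. COL9A1, COL9A3, COL12A1, COL16A1, COL19A1, COL20A1 and COL22A1 had no peak in either list.

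Of the 6 type IV genes of basement membranes, 1 (16.7%, against the background of 15.1%) had an LV-MEIS1 peak. This was COL4A4, which encodes a chain of the specialized basement membranes of kidney, ear and eye. Its peak lay in intron 31 of 47, 111510 bp from the start, within a MER63A DNA transposon, with a fold enrichment of 9.28 (q = 1.54e-22, percentile 87.0) and a TGACA core centered 6 bp from the summit. COL4A1 and COL4A2, the chains present in nearly all basement membranes, had none, nor did COL4A3, COL4A5 and COL4A6. No peak was annotated to the multiplexins COL15A1 and COL18A1, the transmembrane collagens COL13A1, COL17A1, COL23A1 and COL25A1, the short-chain collagens COL8A1, COL8A2 and COL10A1, or COL7A1 of the anchoring fibrils, classes of 1 to 4 genes in which counts of 0 lie near the background. COL26A1 and COL28A1 had 1 LV-MEIS1 peak each, of 5.46 and 4.40.

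Of the 12 laminin genes, 5 (41.7%, against the background of 15.1%) had an LV-MEIS1 peak and 0 had a HOXB13ko-LV-MEIS1 peak. The background of 15.1% is not matched for length. Several laminin genes span 100 kb or more, where the LV-MEIS1 background was 26.3%. At the background of 5.79% in the latter list, a count of 0 of 12 genes lies near the background. LAMC1, which encodes the gamma chain of most laminin trimers, was the only member with 3 peaks, all in intron 1 of 27, with fold enrichments of 9.02 (q = 3.39e-34), 7.99 (q = 1.95e-24) and 4.33 (q = 1.43e-07) at 29626, 46593 and 65802 bp from the start. None of the 3 held TGACA within 50 bp of the summit. LAMC3 had no peak.

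LAMA3, which encodes the alpha chain of laminin-332, was the only alpha chain gene with a peak and had, with COL6A1, 1 of the 2 LV-MEIS1 peaks within 10 kb by the distance the annotation gave. Its peak lay 4634 bp upstream with a fold enrichment of 7.51 (q = 3.35e-26, percentile 72.2) and held 2 TGACA cores. LAMB3, which encodes the beta chain of the same trimer, had none. LAMA1, LAMA2, LAMA4 and LAMA5 were also without a peak.

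The beta chain genes LAMB1 and LAMB4 are neighbors on chromosome 7, and both LV-MEIS1 peaks named for them lay inside LAMB4. LV-MEIS1 peaks named for DLD (fold enrichment 6.16) and SLC26A3 (5.17) lay beyond the 3′ end of LAMB1. The peak named for LAMB1, the beta chain of the most widespread laminins, lay 34540 bp upstream of the LAMB1 start, in intron 29 of 33 of LAMB4, with a fold enrichment of 7.13 (q = 1.04e-30). The peak named for LAMB4 lay in exon 12 of 23 and had the lowest fold enrichment of all 20, 4.16 (q = 5.16e-05). LAMB2 had no peak.

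**Figure D2:**
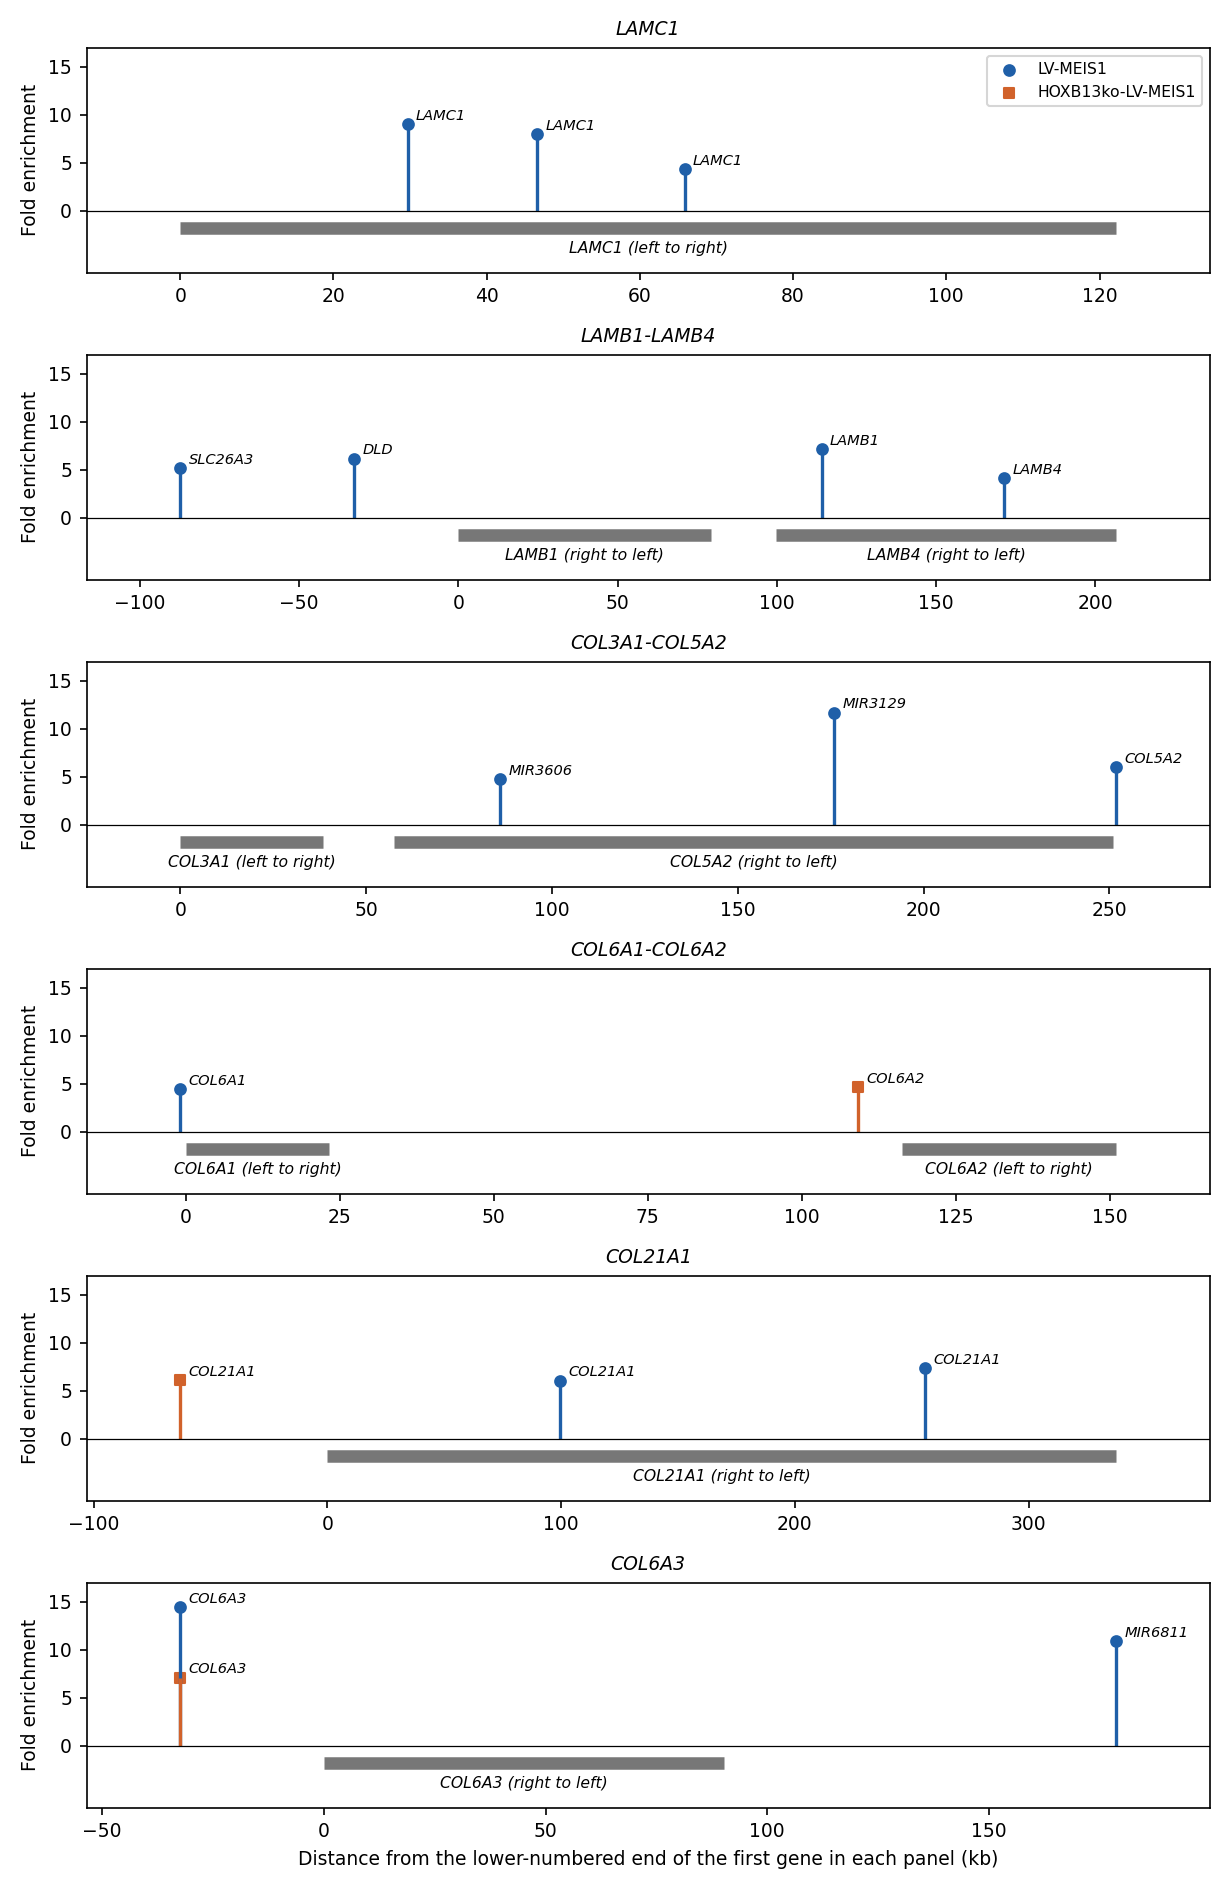
Maps of 6 collagen and laminin loci, with distance in kb from the lower-numbered end of the first gene (horizontal axis), fold enrichment (vertical axis), gene bodies as grey bars and each summit labelled with the gene the annotation named. The 3 LAMC1 peaks, the pair inside LAMB4 and the MIR3129 peak of 11.7 inside COL5A2 were called in LV-MEIS1 cells (blue circles); the COL6A3 peak, 14.4 and 7.09, was called in both lines, and the COL6A2 peak and 1 COL21A1 peak only in HOXB13ko-LV-MEIS1 cells (orange squares).

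Fold enrichment divides the pileup by a local background from the input, and that background differed between members. It can be recovered from both values and ranged from 1.00 to 2.76 times the genome level across the 20 LV-MEIS1 peaks, with a median of 1.31 against 1.15 for all peaks of the list. LAMB1 had the highest background and also the highest pileup of the 20, 63.2, ranking 77 of 5968 by pileup and 1956 by fold enrichment. COL5A2 and LAMA3 followed in background, at 2.42 and 2.07 times the genome level. COL6A3 stood at 1.00 times, so its lead in fold enrichment rested on a pileup of 55.2 that was lower than those of LAMB1 and of the strongest LAMC1 peak (58.5). The order of the strongest peaks thus differed between these 2 measures.

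By the distance the annotation gave, peaks at collagen and laminin genes lay farther from start sites than MEIS1 peaks in general. The median distance of the 20 LV-MEIS1 peaks was 46461 bp, against 23121 bp for all 5968. The members are longer at the median (124.5 kb against 24.1 kb), and whether the distance goes with gene length was not tested. Some distances depend on the gene model. From the outermost GENCODE start the COL5A2 distance was 896 instead of 46329 bp and that of COL14A1 23256 instead of 88584 bp. For 1 COL21A1 peak it was 238126 instead of 64307 bp. By the same distance 2 of 20 (10%) lay within 10 kb, against 38.1%, and 1 of 20 (5%) was classed as a promoter, against 20.2%. Beyond 100 kb lay 4 of 20 (20%), against 21.7%. Introns held 10 of 20 (50%, against 38.0%), intergenic sequence 8 (40%, against 37.0%) and an exon 1. The 3 HOXB13ko-LV-MEIS1 peaks were all intergenic, at 7155, 98073 and 122578 bp, where the whole list had a median of 10517 bp. The 98073 bp of COL21A1 was measured from a start inside the gene. From the outermost COL21A1 start in GENCODE that summit lay 400506 bp away. Annotated repeats held 2 of 20 LV-MEIS1 peaks (10%, against 19.5%) and 2 of 3 HOXB13ko-LV-MEIS1 peaks (against 40.6%). In height the members were ordinary, with a median fold enrichment of 6.42 against 6.17 and 10 of 20 above the median of the list.

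**Figure D3:**
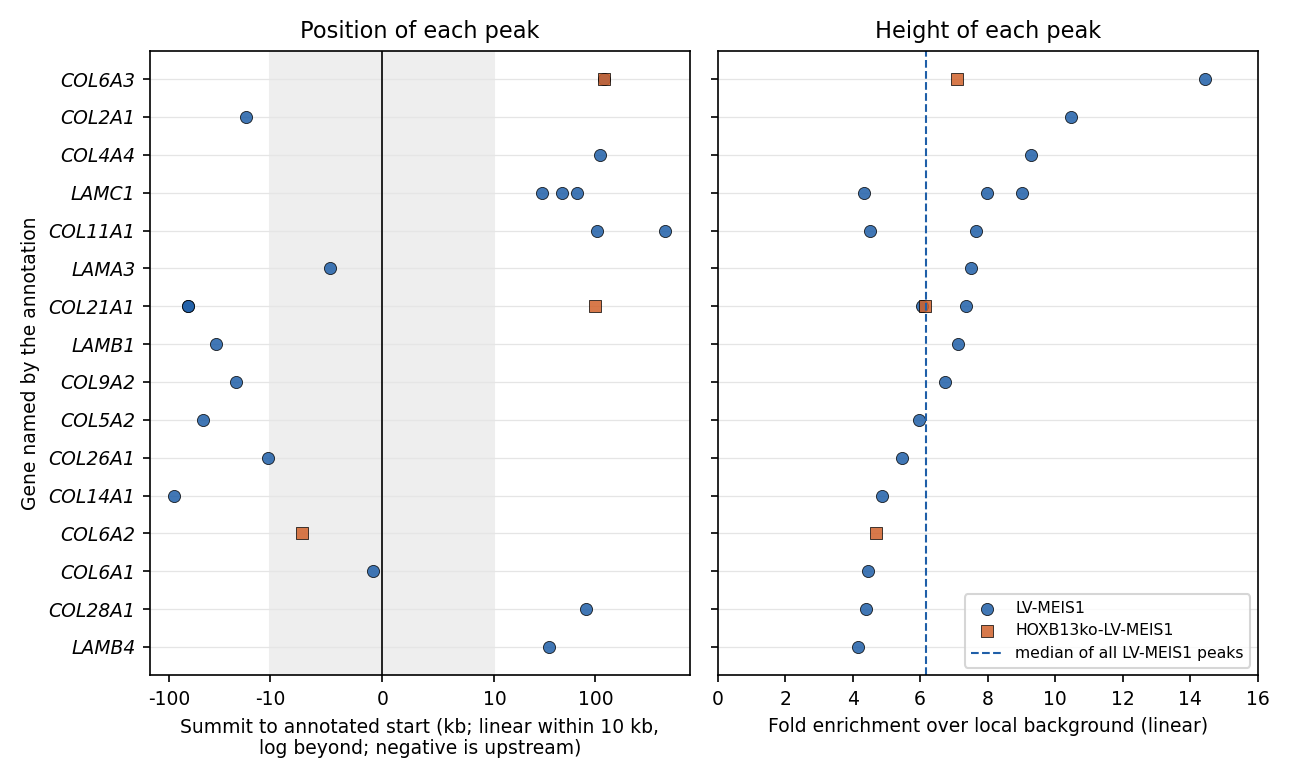
Collagen and laminin peaks by gene, for the genes named in the text, ordered by its highest fold enrichment, with signed distance to the annotated start in kb (left, shaded within 10 kb) and fold enrichment (right, dashed line at the LV-MEIS1 median of 6.17), for LV-MEIS1 (blue circles) and HOXB13ko-LV-MEIS1 (orange squares). Only LAMA3, COL6A1 and COL6A2 have a peak within 10 kb of the annotated start, and COL6A3 stands highest at 14.4; the 2 COL21A1 circles at left nearly coincide because each is measured from a different start.

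Distance was also measured without regard to names, from every GENCODE start to the nearest summit. An LV-MEIS1 summit lay within 10 kb of 3 of 56 members (5.36%) against 11.1% of all protein-coding genes, and within 100 kb of 24 (42.9%) against 40.6%. A HOXB13ko-LV-MEIS1 summit lay within 10 kb of 1 member (1.79%, against 4.76%) and within 100 kb of 4 (7.14%, against 20.6%). The median distance from a member's start to the nearest summit was 121.5 kb in LV-MEIS1 and 576.6 kb in HOXB13ko-LV-MEIS1 cells, against 147.5 and 460.6 kb for all protein-coding genes. For the 19 LV-MEIS1 member peaks that overlapped none in the other line, the nearest HOXB13ko-LV-MEIS1 summit lay 64.0 kb away at the least and 370.4 kb at the median. Near-misses of the overlap criterion therefore did not occur among them.

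The core words of both factors were then counted within 50 bp of each summit on either strand, and in windows of the same 101 bases centered 500 bp to each side. The TGACA core of MEIS proteins occurred in 9 of 20 LV-MEIS1 member windows (45%, 95% Wilson interval 25.8 to 65.8, which covers counting error only) and in 20% of their flanks. Over all LV-MEIS1 peaks it occurred in 56.1% of windows and 18.9% of flanks. Its center lay at a median of 9 bp from the summit in the 9 member windows, within 20 bp in 7 of them. By fold enrichment, 7 of the 10 highest and 2 of the 10 lowest member peaks held TGACA, while over all LV-MEIS1 peaks it was 60.4% above the median and 51.8% at or below it. The 3 of the 10 highest without the core were COL6A3 and the 2 stronger LAMC1 peaks. None of the 3 HOXB13ko-LV-MEIS1 member windows held TGACA, and in that whole list it occurred in 16.8% of windows and 14.4% of flanks.

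ATAAA, the core of HOXB13 sites, occurred in 14 of 20 LV-MEIS1 member windows (70%) and 35% of their flanks, against 45.8% and 32.9% over all LV-MEIS1 peaks. Both words were present in 6 member windows, ATAAA alone in 8, TGACA alone in 3, and neither in 3, among them COL6A1 and the weakest LAMC1 peak. In HOXB13ko-LV-MEIS1 cells ATAAA occurred in 1 of 3 member windows, that of COL6A3, against 13.1% of all windows and 24.1% of flanks. TGACA followed by any 2 bases and TTTAT, the arrangement of a MEIS core next to a HOXB13 core, was in no member window and in 0.922% of all LV-MEIS1 windows. A word match is a description of the letters in the window and not a measured site, and with 20 windows these shares have wide counting intervals.

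**Figure D4:**
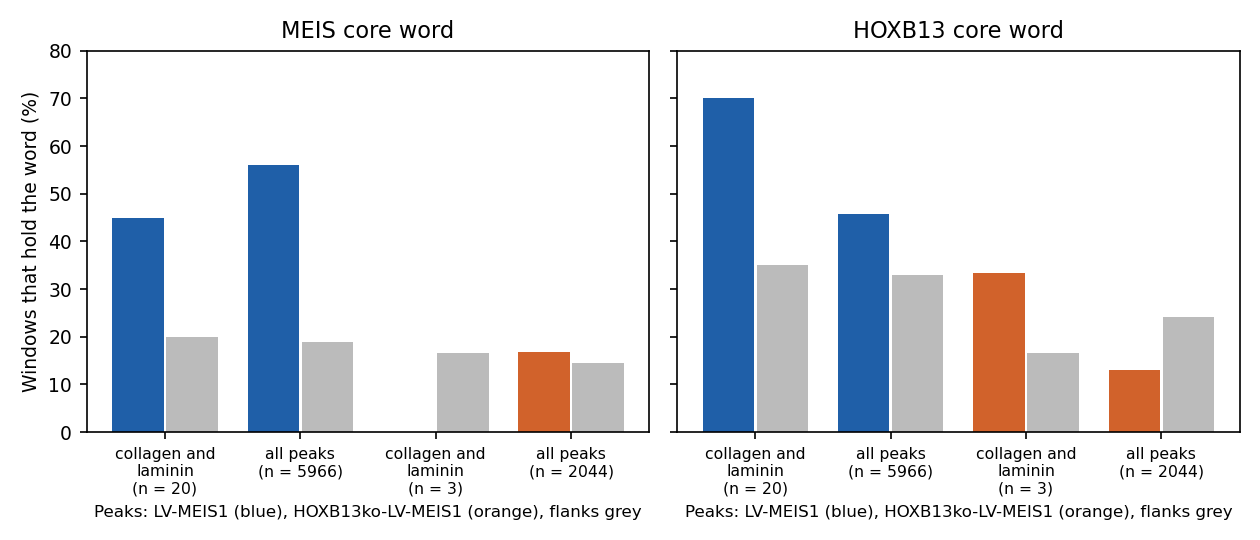
Percent of 101-base windows that hold the MEIS core (left) or the HOXB13 core (right), at summits (colored) and in flanks 500 bp away (grey), for collagen and laminin peaks and for all peaks of each list. In LV-MEIS1 cells the MEIS core was in 45% of 20 member windows and 56.1% of all windows, the HOXB13 core in 70% and 45.8%; the 3 HOXB13ko-LV-MEIS1 member windows hold the MEIS core in none.

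Of 67 genes in 5 classes whose products act with collagens and laminins, 12 had an LV-MEIS1 peak (17.9%, against a background of 15.1%) and 2 a HOXB13ko-LV-MEIS1 peak (2.99%, against 5.79%). The LV-MEIS1 counts were 3 of 17 for folding and modification of collagen, 3 of 13 for trimming and cross-linking, 2 of 13 for other basement membrane components, 3 of 16 for collagen or laminin receptors and 1 of 8 for collagen-degrading enzymes. Both genes with a HOXB13ko-LV-MEIS1 peak also had an LV-MEIS1 peak at the same place. MIA3, which loads procollagen into carriers leaving the endoplasmic reticulum, had overlapping intronic peaks, 4998 bp from its start in LV-MEIS1 and 4920 bp in HOXB13ko-LV-MEIS1 cells, with fold enrichments of 8.62 in LV-MEIS1 and 5.05 in HOXB13ko-LV-MEIS1 cells. NTN4, a netrin that binds laminin gamma chains, had LV-MEIS1 peaks of 8.99 and 8.09 in an intron, of which the second overlapped a HOXB13ko-LV-MEIS1 peak of 5.19.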

How the data were processed

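MEIS1 ChIP-seq peaks of 2 CWR22Rv1 lines were analyzed on hg38. Per the labels, reads were processed with CASAVA 1.8, Trimmomatic 0.38, Bowtie2, SAMtools and Picard 2.18.10, peaks called with MACS2 (2.1.2 in the file headers) at q of 0.01 on pooled immunoprecipitations against 1 input, and annotated with HOMER 4.9.1. The deposited values were pileup signal scaled to the input depth, fold enrichment (a ratio over local background), −log10 q-values and distance to the nearest start.

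The authors' names assigned peaks to genes. The background was every RefSeq protein-coding gene, matched by gene ID. Gene bodies and starts came from GENCODE 44. Local background was (pileup + 1)/fold enrichment − 1. Overlap required 1 bp. Overlap and word searches were tested on simulated data. No comparison was tested, since each line had 1 list. Genes were named where they had a HOXB13ko-LV-MEIS1 peak, an overlapping peak, a peak within 10 kb, 3 peaks, 1 of the 10 highest peaks or the lowest. The bound genes COL5A2, COL26A1, COL14A1 and COL28A1 and the microRNA-named peaks were added after their values were seen. Results for 1 bound gene and some sequences are not reported here, though counts include them. The members and lists were chosen with earlier results of these data known. Python 3.11.15, pandas 2.3.3 and pysam 0.24.0 were used.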

Additional observations from a re-analysis of the deposited data

How the results depend on the processing

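Of 69 values recomputed under alternatives, 51 stayed within 1.5 times the count or within the interval of the value, and 18 moved. Without peaks in repeats the HOXB13ko-LV-MEIS1 list kept 1 gene with 1 peak (COL6A3), and 1 gene was bound in both lists. Within 100 kb of the start by the distance the annotation gave, 1 gene was bound in both lists. Within 10 kb, LV-MEIS1 had 2 genes with 2 peaks at a median of 2749 bp, HOXB13ko-LV-MEIS1 had 1 gene with 1 peak, and 0 genes were in both. With summits assigned to the gene body or 10 kb upstream, 9 genes were bound in LV-MEIS1, 1 in HOXB13ko-LV-MEIS1 and 0 in both. The longer word TGACAG occurred in 25% of LV-MEIS1 member windows. With the LV-MEIS1 list shortened to the 2047 peaks of lowest q, chosen after seeing the data, 8 genes with 9 peaks remained against 3 in HOXB13ko-LV-MEIS1, 1 gene was in both, and TGACA was in 66.7% of the windows. In every alternative run the LV-MEIS1 list held more bound members than the HOXB13ko-LV-MEIS1 list, by as little as 2 against 1 within 10 kb. The full lists had the same order over all protein-coding genes, 3033 against 1161, so the order is not particular to the members. Shares of all genes under the alternatives are not given here.

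Leaving out a replicate was not run, because only pooled lists were used. No paired analysis was possible because each line had 1 list. Both lists were called against 1 common input.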

Other observations

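A second word stood out when the summit windows were read, and was counted only after that. TGATTTAT, on either strand, occurred in 4 of 20 LV-MEIS1 member windows (COL6A3, the strongest LAMC1 peak, LAMB1 and one COL21A1 peak) and in none of their flanks, against 7.78% of all LV-MEIS1 windows and 0.788% of flanks. It contains the whole ATAAA core on the opposite strand, so every window with it is also counted for ATAAA. In the HOXB13ko-LV-MEIS1 list it occurred in 2.15% of windows and 0.612% of flanks, and among the 3 members in COL6A3 alone. Because the word was picked from these windows, the member count is a description.

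The window of COL6A3, the one member peak called in both lines, shared a stretch of 18 bases with that of the middle LAMC1 peak. The LAMC1 peak was called only in the LV-MEIS1 list. The stretches differ by C10G, counted from 1 at the left end on the plus strand, COL6A3 base first. They are printed here with the differing base in capitals.
COL6A3: ttcataaatCattactca
LAMC1: ttcataaatGattactca
The next longest stretch with at most 1 difference between COL6A3 and another LV-MEIS1 member window was 12 bases, in LAMB1 and in the weakest LAMC1 peak. The COL14A1 window was not compared. How often such stretches are shared among all LV-MEIS1 windows is not given here, so the match is a description.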
